A study of Mus musculus with 9 samples.

Results

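Sterol and fatty acid synthesis were followed through 29 genes of these pathways in OT-II thymocytes that were or were not exposed to their antigen as a self-antigen. The genes were chosen by name and were 29 of the 24594 genes of the expression table. They comprised 6 enzymes of the mevalonate steps, 11 enzymes of the steps from squalene to cholesterol, 4 regulators or carriers, and 8 enzymes of fatty acid synthesis, elongation and desaturation. In the 5 comparisons made here, 0 of the 28 members expressed highly enough to be tested were called.

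The cells were semimature CD4 single-positive thymocytes, sorted as CD4+ CD8- CD69+ Valpha2+ Vbeta5+ from mixed bone marrow chimeras 4.7 weeks after reconstitution. All sorted cells carried the OT-II transgene, a T cell receptor specific for an ovalbumin peptide. Each irradiated host received marrow of OT-II donors lacking Nr4a1 and Nr4a3 (Nr4a1-/- Nr4a3-/-, labelled DKO, C57BL/6 background), OT-II control donors (Nr4a1+/+ Nr4a3+/+, F1 of B6.Cg-Tg(TcraTcrb)425Cbn/J and BoyJ) and non-transgenic wild-type donors at 1:1:3. WT hosts lacked ovalbumin and are BoyJ in the labels, whereas the study's methods describe both host types as offspring of RIP.mOVA and BoyJ crosses. Where the labels hold, host strain and ovalbumin cannot be told apart. RIPmOVA hosts were F1 mice of BoyJ and C57BL/6 mice carrying the transgene Tg(Ins2-TFRC/OVA)296Wehi and expressed membrane ovalbumin from an insulin promoter, which is also active in a few epithelial cells of the thymic medulla. There were 2 libraries of OT-II control cells and 3 of DKO cells from WT hosts, and 2 of each from RIPmOVA hosts. Libraries of both genotypes with the same replicate number in a host type came from 1 chimera. The genotypes differ in donor background, and the 2 cannot be told apart. Ages of the chimeric mice were not given in the sources used here. The study asked how negative selection and the absence of both NR4A receptors shape these thymocytes.

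Cells build cholesterol from acetyl-CoA through mevalonate, the isoprenoid farnesyl diphosphate, squalene and lanosterol. The transcription factor SREBP2, encoded by Srebf2, raises transcription of nearly every enzyme of this route when membrane sterol falls, and SREBP1, encoded by Srebf1, does so mainly for fatty acid synthesis. INSIG1 retains the SREBP precursors in the endoplasmic reticulum when sterol is plentiful and is itself an SREBP target. T cells raise the pathway when they are activated and enter growth, and thymocytes past positive selection are largely non-dividing.

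Depth was 15520000 to 25050000 reads per library. Markers of T cells and of the gate (Cd3d, Cd3e, Cd3g, Cd4, Lck, Cd69 and Ccr7) summed to 1762 to 2101 RPKM (reads per kilobase of exon, scaled to the exonic reads of the library) and none was at 0. Nr4a1 was 60.7 to 87.7 RPKM in the 5 WT-host libraries and 229 to 282 in the 4 RIPmOVA-host libraries, and was not lower in DKO than in control cells, so summed exon reads do not check the deletion and DKO is used here as a label. By reads on olfactory, vomeronasal and taste receptor genes, 4 libraries stood apart (OT-II replicate 1 and DKO replicate 2 of WT hosts and both DKO libraries of RIPmOVA hosts), at 1053 to 1499 reads per 1000000 against 295 to 556 in the other 5 libraries.

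The members spanned a wide range of expression. Scd2, a stearoyl-CoA desaturase, was the most abundant at 81.5 to 103 RPKM, and its paralog Scd1 was the least abundant at 0.206 to 0.664 RPKM. Acly, which cleaves citrate to cytosolic acetyl-CoA, followed Scd2 at 46.1 to 66.8 RPKM. Srebf2 (13.5 to 27.4 RPKM) and Srebf1 (16.2 to 20.7 RPKM) overlapped each other, and the sterol enzymes ran from Ebp (14.3 to 19.1 RPKM) down to Lss (1.08 to 1.93 RPKM). Acaca, the acetyl-CoA carboxylase that commits carbon to fatty acids, stood at only 0.314 to 1.07 RPKM. Scd1 was below 1 RPKM in every library and was the 1 member that the filter removed.

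**Figure D1:**
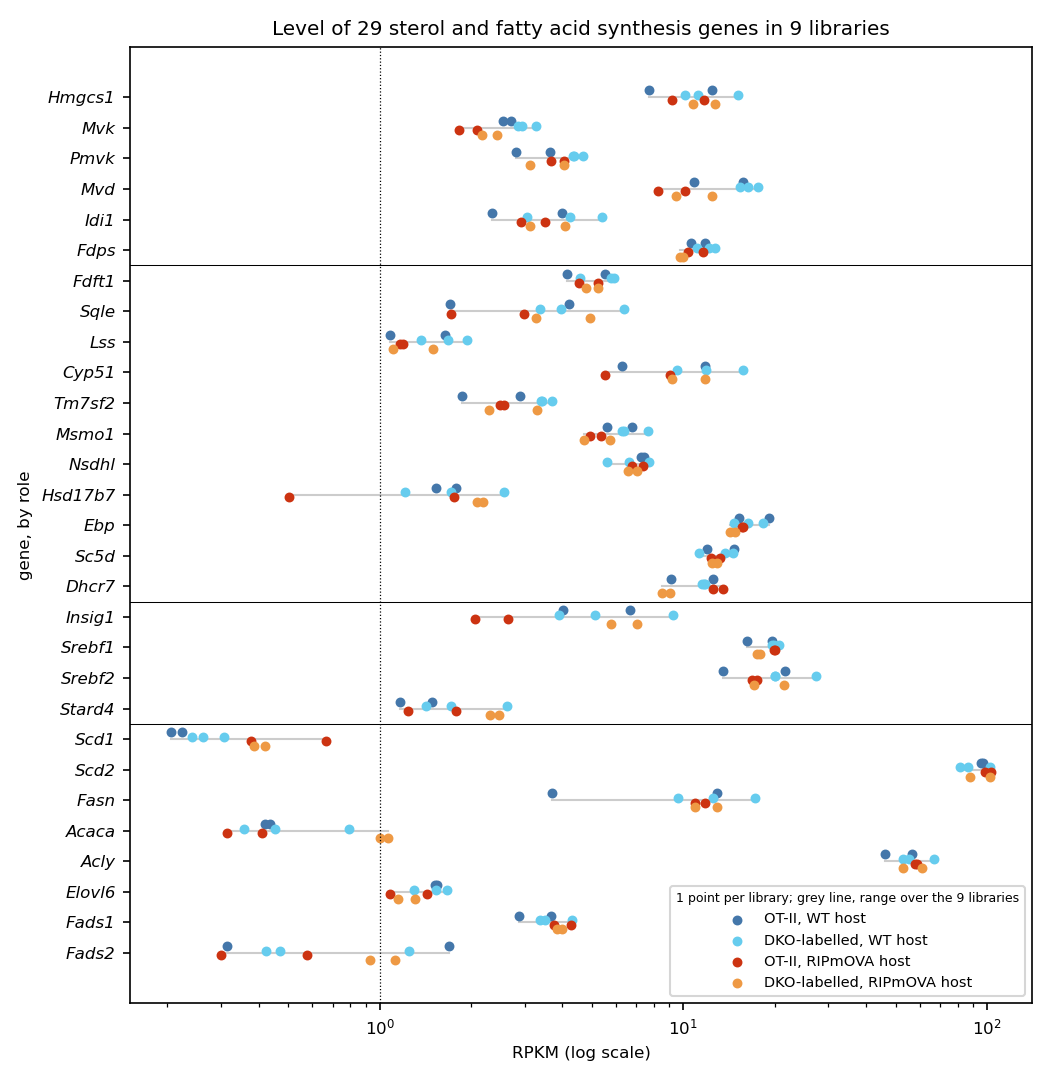
Level of each of the 29 genes in RPKM on a log axis, 1 point per library, coloured by genotype label and host, with a grey line for the range over the 9 libraries. Scd2 and Acly lie above all other members, and the dotted line marks 1 RPKM. Within any single pairwise comparison, the points of most genes overlap between the groups compared.

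Most member promoters that could be read held 1 short motif. RefSeq start-site windows (300 bases of GRCm38.p6, mostly upstream of the start site) were found for 22 of the 29 members. The letters CCAAT are the box bound by NF-Y, a cofactor of SREBP at many sterol genes. They occurred on either strand in 19 of the 22 (86.4%), and not in Acaca, Elovl6 and Fads2. The share was 41.1% over 27025 genes with a window, whether or not these were expressed here. The letters TCACNCCAC, the core of the sterol regulatory element, occurred in 1 of 22, the promoter of Hmgcs1, and in 1.44% of all genes. The letters AAAGGTCA, the element that NR4A receptors bind as monomers, occurred in 0 of 22 members and in 1.70% of all genes. A match is a description of these letters in these windows and was not tested as a site. Of the CCAAT boxes, 1 pair overlapped, in the promoter of Fasn.

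The windows below show Insig1, Fads2 and Acaca, which had the largest mean absolute log2 changes over the 4 pairwise comparisons (0.637, 0.458 and 0.418), and Hmgcs1 and Mvk, added after their motifs were seen because they hold the sterol element match and the most CCAAT boxes. Capitals mark the CCAAT boxes, which read ATTGG where the box lies on the other strand, and the sterol element match.
Insig1, chr5:28071162-28071461, plus strand: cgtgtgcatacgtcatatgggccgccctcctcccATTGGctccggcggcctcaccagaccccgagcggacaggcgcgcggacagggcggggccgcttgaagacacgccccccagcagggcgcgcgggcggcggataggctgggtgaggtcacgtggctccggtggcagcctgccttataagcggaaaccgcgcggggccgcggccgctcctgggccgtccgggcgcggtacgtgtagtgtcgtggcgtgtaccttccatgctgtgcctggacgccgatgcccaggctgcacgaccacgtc
Hmgcs1, chr13:119690101-119690400, plus strand: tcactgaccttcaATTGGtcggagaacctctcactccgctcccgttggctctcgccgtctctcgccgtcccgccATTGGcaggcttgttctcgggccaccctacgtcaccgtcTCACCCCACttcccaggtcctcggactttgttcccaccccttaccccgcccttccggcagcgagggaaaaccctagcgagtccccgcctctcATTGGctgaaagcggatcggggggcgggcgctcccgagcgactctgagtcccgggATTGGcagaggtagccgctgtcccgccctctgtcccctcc
Mvk, chr5:114444019-114444318, plus strand: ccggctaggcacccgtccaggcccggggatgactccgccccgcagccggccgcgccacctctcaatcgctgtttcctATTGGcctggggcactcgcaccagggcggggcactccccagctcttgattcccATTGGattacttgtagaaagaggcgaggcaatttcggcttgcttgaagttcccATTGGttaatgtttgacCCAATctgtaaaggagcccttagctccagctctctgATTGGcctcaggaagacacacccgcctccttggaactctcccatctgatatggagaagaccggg
Fads2, chr19:10101454-10101753, minus strand: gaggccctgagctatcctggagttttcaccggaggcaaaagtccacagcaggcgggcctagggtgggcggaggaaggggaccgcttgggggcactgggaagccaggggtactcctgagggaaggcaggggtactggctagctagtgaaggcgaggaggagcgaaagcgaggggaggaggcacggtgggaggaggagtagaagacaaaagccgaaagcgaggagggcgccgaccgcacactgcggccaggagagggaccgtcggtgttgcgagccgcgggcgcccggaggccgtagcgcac
Acaca, chr11:84195188-84195487, plus strand: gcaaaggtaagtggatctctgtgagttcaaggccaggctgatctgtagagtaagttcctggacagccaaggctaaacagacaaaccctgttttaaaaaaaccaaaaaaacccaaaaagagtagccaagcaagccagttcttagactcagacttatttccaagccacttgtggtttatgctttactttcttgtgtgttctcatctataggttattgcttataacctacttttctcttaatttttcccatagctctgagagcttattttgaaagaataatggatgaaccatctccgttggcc
The Hmgcs1 window held TCACCCCAC 137 bases before the start site and 4 CCAAT boxes, and the Mvk window held 5 CCAAT boxes. The Insig1 window held 1 CCAAT box, 216 bases before the start site. No capital appears in the Fads2 and Acaca windows. The Acaca window belongs to a start site inside the annotated gene, and further starts of that gene were not used here.

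The first question was whether exposure to ovalbumin changed the members in OT-II control cells. A gene was called at a limma adjusted p of 0.05 or less and an absolute log2 change of at least 1, on the log2(RPKM + 0.5) scale. In OT-II cells of RIPmOVA against WT hosts, 0 of 28 members were called, beside 1.23% of the 11569 genes tested. At the adjusted p alone 0 members passed, beside 1.89%, and voom on the recovered reads called 0 members in each of the 5 comparisons. In all, 3 members had an unadjusted p below 0.05, beside 14.3% of all genes. Of the 28 members, 13 lay above 0 and 15 below (46.5% and 53.5% of all genes), and their median log2 change was -0.038, against -0.020 over all genes tested. After median-of-ratios rescaling over all genes of the table the median of members was 0.021. By interval, 23 of 28 members had a 95% interval inside 1 unit of the log2(RPKM + 0.5) scale in either direction. A larger change on that scale was outside the interval for those genes and not for the other 5. The scale understates changes of low genes. For Acaca, at 0.314 to 0.436 RPKM in these OT-II libraries, the interval of -0.89 to 0.67 does not exclude a larger change in RPKM.

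Insig1 had the lowest log2 change. Its RPKM values were 4.01 and 6.69 (OT-II, WT host), 3.88, 9.27 and 5.12 (DKO, WT host), 2.05 and 2.65 (OT-II, RIPmOVA host) and 5.77 and 7.01 (DKO, RIPmOVA host). Both OT-II libraries of RIPmOVA hosts were below every other library, and the remaining 3 groups overlapped each other. The host change in OT-II cells was -1.0 (SE 0.349, adjusted p = 0.219), with a 95% interval of -1.79 to -0.22, and did not pass. Regulatory T cell markers (Foxp3, Il2ra and Ikzf2) summed to 31.4 and 33.8 RPKM in these OT-II libraries, 13.6 and 23.4 in the DKO libraries of RIPmOVA hosts and 1.38 to 5.85 in WT hosts. Foxp3 alone did not follow this sum. It was 1.90 and 3.31 RPKM in these OT-II libraries, 0.092 and 0.077 in the DKO libraries of RIPmOVA hosts and 0.037 to 0.491 in WT hosts. Ikzf2 (14.9 and 8.23) and Il2ra (8.48 and 5.26) made up nearly all of the sum in those DKO libraries. The part of these markers in the Insig1 values was not tested. In sorted bulk samples such as these, fewer cells of a type and less RNA per cell cannot be told apart.

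Of the 17 enzymes of the sterol route, 6 lay above 0 and 11 below in OT-II cells, and the 6 of the mevalonate steps split into 3 above and 3 below. Mvd, the mevalonate diphosphate decarboxylase, had values of 10.9 and 15.7 (OT-II, WT host), 15.3, 17.7 and 16.3 (DKO, WT host), 8.25 and 10.1 (OT-II, RIPmOVA host) and 9.44 and 12.5 (DKO, RIPmOVA host). Both groups of RIPmOVA hosts had low values and the DKO cells of WT hosts high ones, while OT-II cells of WT hosts spanned a wide range. Its host change in OT-II cells was -0.49 (SE 0.190, adjusted p = 0.268). Mvk, the mevalonate kinase, was 2.56 and 2.71 (OT-II, WT host), 2.93, 3.27 and 2.85 (DKO, WT host), 2.10 and 1.82 (OT-II, RIPmOVA host) and 2.18 and 2.44 (DKO, RIPmOVA host) RPKM, and all 5 WT-host libraries were above all 4 RIPmOVA-host libraries. The changes of Mvk were -0.35 (SE 0.154, adjusted p = 0.344) in OT-II cells and -0.32 (SE 0.141, adjusted p = 0.278) in DKO cells, neither past the threshold.

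The remaining extremes in OT-II cells rested on single libraries. Fasn, the fatty acid synthase, was 3.68 and 12.9 (OT-II, WT host), 12.5, 17.2 and 9.62 (DKO, WT host), 11.8 and 10.9 (OT-II, RIPmOVA host) and 12.9 and 10.9 (DKO, RIPmOVA host) RPKM. OT-II replicate 1 of WT hosts was far below all other libraries, with 796 reads against 2651 to 4831. The host change of Fasn was 0.66 (SE 0.450, adjusted p = 0.562). Without OT-II replicate 2 of WT hosts, which leaves the low library as the only control, it became 1.50 with an adjusted p of 0.025 and was called, and without replicate 1 it became -0.18. Hsd17b7, a keto-reductase of the sterol steps, was 1.54 and 1.79 (OT-II, WT host), 1.21, 2.57 and 1.71 (DKO, WT host), 0.505 and 1.76 (OT-II, RIPmOVA host) and 2.19 and 2.09 (DKO, RIPmOVA host) RPKM, and its lowest library was OT-II replicate 1 of RIPmOVA hosts with 46 reads. Its change of -0.52 (SE 0.384, adjusted p = 0.601) became 0.068 without that library. Fads2, the delta-6 desaturase, was 1.69 and 0.315 (OT-II, WT host), 0.469, 1.25 and 0.424 (DKO, WT host), 0.576 and 0.300 (OT-II, RIPmOVA host) and 0.928 and 1.12 (DKO, RIPmOVA host) RPKM and rested on 26 to 94 reads per library. Its change of -0.53 (SE 0.507, adjusted p = 0.695) became 0.19 without OT-II replicate 1 of WT hosts.

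The highest changes after Fasn were small. Dhcr7, which makes the last reduction to cholesterol, changed by 0.27 (SE 0.138, adjusted p = 0.438) and Fads1, the delta-5 desaturase, by 0.27 (SE 0.163, adjusted p = 0.521). Without OT-II replicate 1 of WT hosts these changes were 0.053 and 0.115. Fads1 was 2.87 and 3.66 (OT-II, WT host), 3.37, 4.31 and 3.50 (DKO, WT host), 3.74 and 4.28 (OT-II, RIPmOVA host) and 3.85 and 3.98 (DKO, RIPmOVA host) RPKM, so the RIPmOVA-host OT-II libraries were above both OT-II libraries of WT hosts by less than 1 log2 unit. In all, 6 members had OT-II libraries of RIPmOVA hosts above those of WT hosts without overlap (Acly, Dhcr7, Fads1, Pmvk, Scd2 and Srebf1; 19.4% of all genes), and 6 had them below (Acaca, Elovl6, Insig1, Msmo1, Mvd and Mvk; 22.1%). With 2 libraries a group, such counts were close to those over all genes.

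**Figure D2:**
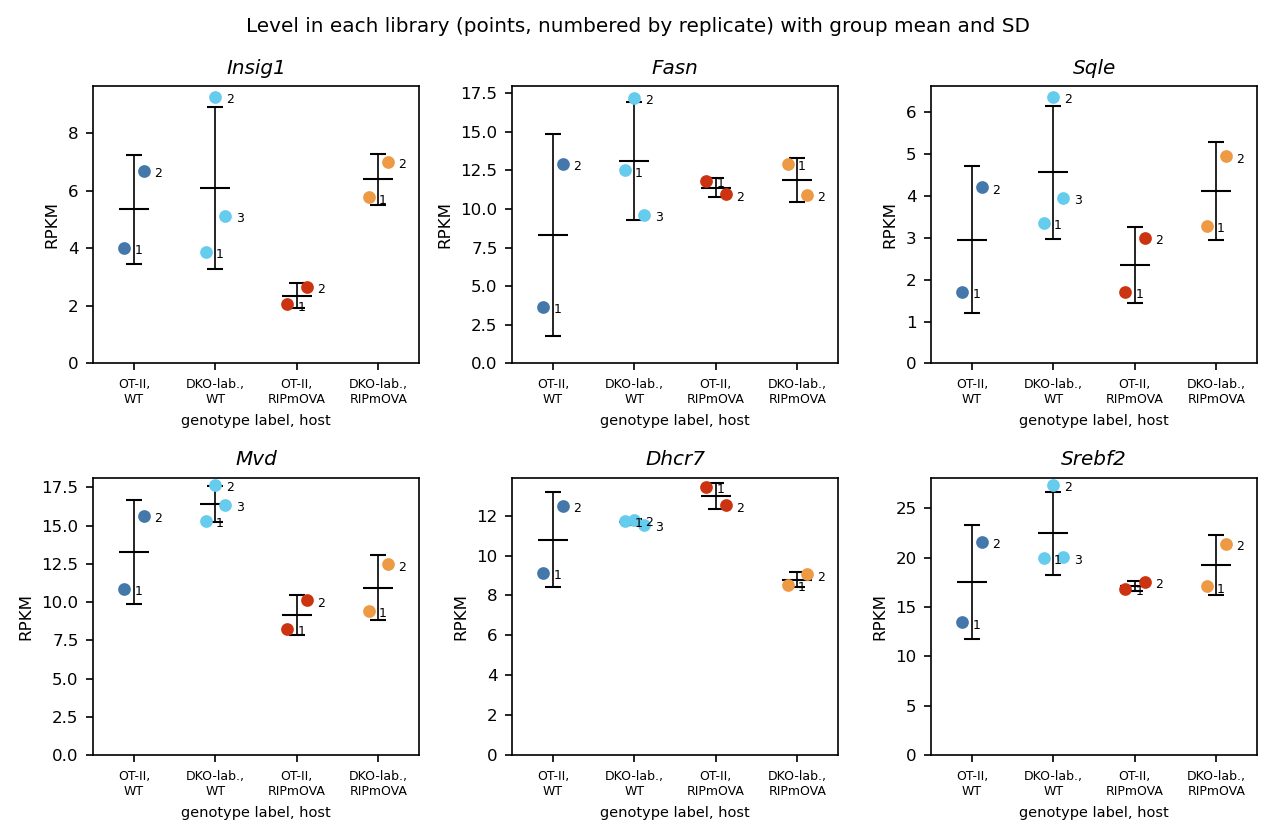
RPKM of 6 members in each library (points, numbered by replicate) with the group mean and SD (bars), by genotype label and host. The OT-II libraries of RIPmOVA hosts are the 2 lowest for Insig1, and replicate 1 of the OT-II cells of WT hosts is the lowest for Fasn, Sqle and Srebf2.

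The same question in DKO cells gave 0 of 28 members called, beside 1.68% of all genes, 0 at the adjusted p alone, beside 3.35%, and 5 members with an unadjusted p below 0.05, beside 17.6%. Values lay below 0 for 20 of 28 members, beside 45.6% of all genes, and above 0 for 8, beside 54.4%, with a median of -0.14 against 0.027 over all genes. The 8 include Acaca, which passed the filter only through the DKO libraries of RIPmOVA hosts, so its direction was fixed. Of the 17 enzymes of the sterol route, 15 were below 0, among them all 6 of the mevalonate steps, whose median was -0.28. Without DKO replicate 2 of WT hosts these counts were 16 of 28 and 12 of 17 and the median of members was -0.037.

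Mvd had the lowest value, -0.58 (SE 0.173, adjusted p = 0.124), with a 95% interval of -0.97 to -0.18. Without DKO replicate 1 of RIPmOVA hosts its change was -0.38. Dhcr7 was 9.12 and 12.5 (OT-II, WT host), 11.7, 11.8 and 11.5 (DKO, WT host), 13.5 and 12.5 (OT-II, RIPmOVA host) and 8.54 and 9.05 (DKO, RIPmOVA host) RPKM. The 2 DKO libraries of RIPmOVA hosts were the lowest of all 9, the 3 DKO libraries of WT hosts lay close together, and OT-II cells of RIPmOVA hosts were the highest as a group. Its change was -0.39 (SE 0.126, adjusted p = 0.149). That in OT-II cells had the opposite sign, but was only 0.053 without OT-II replicate 1 of WT hosts. Msmo1, the C4-methylsterol oxidase, was 5.62 and 6.76 (OT-II, WT host), 6.36, 7.63 and 6.27 (DKO, WT host), 4.92 and 5.38 (OT-II, RIPmOVA host) and 4.71 and 5.72 (DKO, RIPmOVA host) RPKM, with a change of -0.34 (SE 0.137, adjusted p = 0.240).

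The highest host changes in DKO cells were those of Acaca, Fads2 and Stard4. Acaca was 0.436 and 0.419 (OT-II, WT host), 0.452, 0.791 and 0.357 (DKO, WT host), 0.410 and 0.314 (OT-II, RIPmOVA host) and 1.01 and 1.07 (DKO, RIPmOVA host) RPKM, so both DKO libraries of RIPmOVA hosts were above the other 7. These were also the only 2 libraries in which Acaca reached 1 RPKM, so it passed the filter only through the group in which it was high, and its changes are given as a description. Its change was 0.59 (SE 0.316, adjusted p = 0.352), and with quantile normalization it was -0.038. Without either of these 2 libraries Acaca no longer passed the filter. Fads2 changed by 0.39 (SE 0.463, adjusted p = 0.677), and quantile normalization turned it to -0.28. Stard4, which carries sterol between membranes, was 1.17 and 1.49 (OT-II, WT host), 1.72, 2.62 and 1.42 (DKO, WT host), 1.24 and 1.79 (OT-II, RIPmOVA host) and 2.30 and 2.48 (DKO, RIPmOVA host) RPKM and changed by 0.29 (SE 0.240, adjusted p = 0.541). Other than Acaca, for which the filter fixed that order, 0 members had all DKO libraries of RIPmOVA hosts higher (22.7% of all genes), and 8 had them all lower (Dhcr7, Fdps, Msmo1, Mvd, Mvk, Pmvk, Srebf1 and Tm7sf2; 17.3%).

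**Figure D3:**
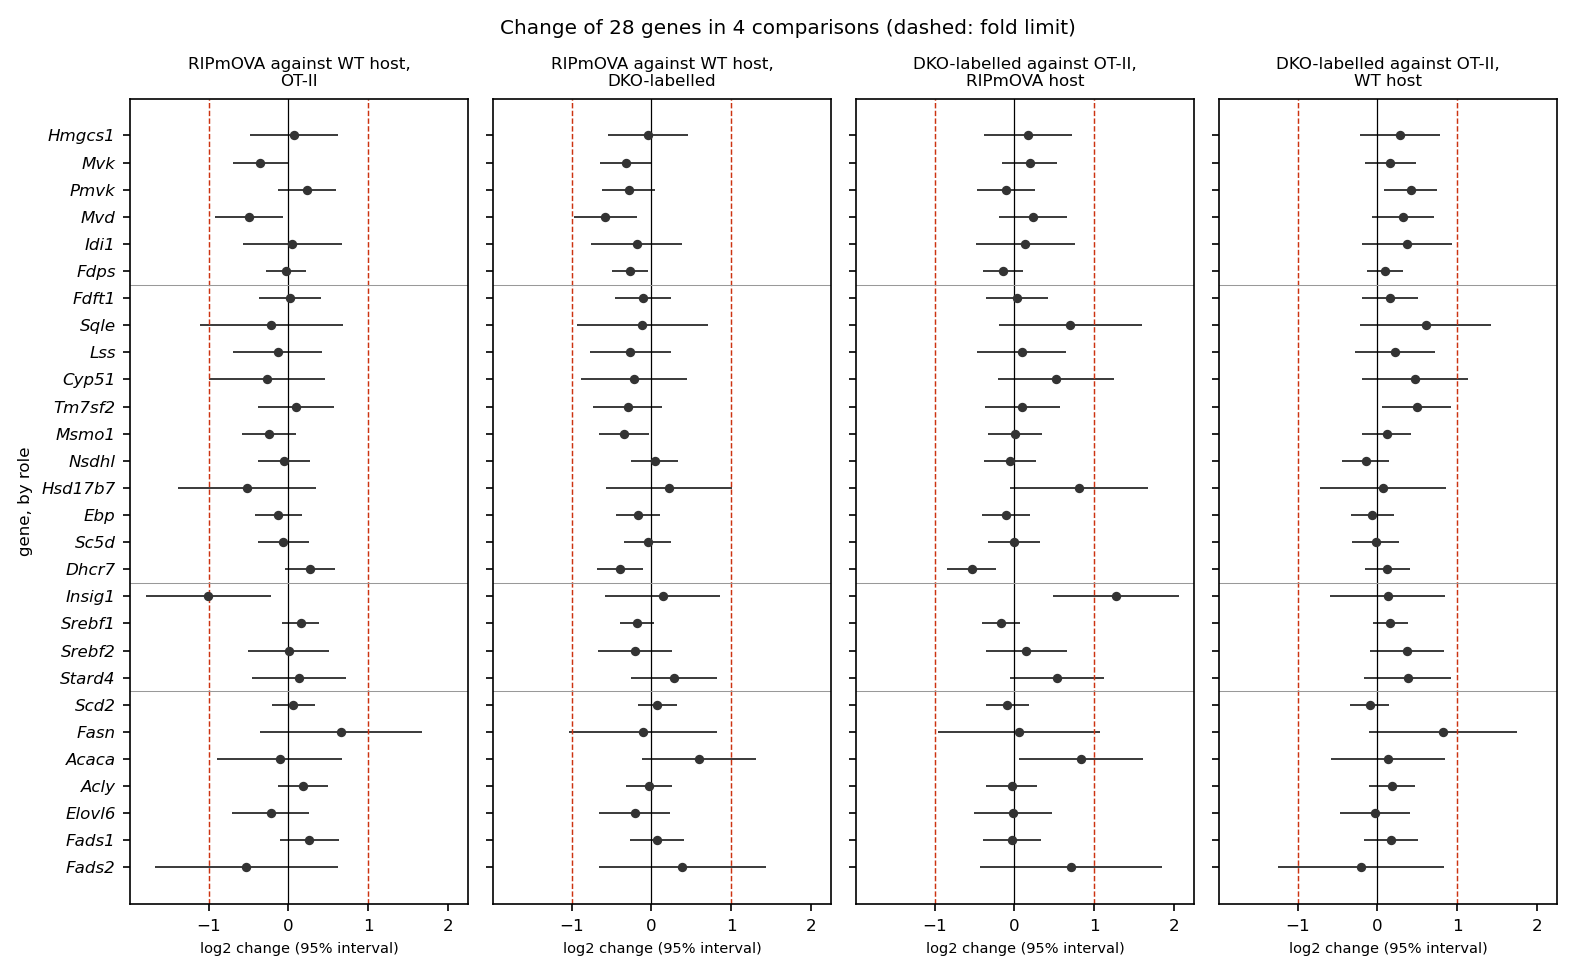
Log2 change of the 28 tested genes in 4 comparisons (points) with 95% intervals (lines). The dashed lines mark the fold limit of 1 log2 unit, and only Insig1 has points past it, at -1.0 in the first panel and 1.27 in the third.

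The genotypes were then compared within each host type. In RIPmOVA hosts 0 of 28 members were called, beside 1.07% of all genes, 0 passed the adjusted p alone, beside 2.21%, and 3 had an unadjusted p below 0.05, beside 21.4%. Above 0 were 17 of 28, beside 56.5% of all genes, and below 0 were 11, beside 43.5%, with a median of 0.075 against 0.045. The 17 include Acaca, which passed the filter only through the DKO libraries of RIPmOVA hosts, so its direction was fixed. That median was -0.021 after quantile normalization and -0.13 after median-of-ratios rescaling over all genes of the table, which moved the median of all genes to -0.17. Insig1 was higher in DKO than in OT-II cells in both chimeras, 5.77 against 2.05 RPKM and 7.01 against 2.65, a log2 change of 1.27 (SE 0.349, adjusted p = 0.0962) with a 95% interval of 0.49 to 2.06. It did not pass in the fit to all 9 libraries, and passed when the fit was restricted to the 4 libraries compared (adjusted p = 0.0371) or left out the 2 WT-host libraries with most sensory receptor reads (adjusted p = 0.0188). With the sensory receptor reads as a covariate its change was 1.14 with an adjusted p of 0.567, and with the chimera as a replicate block it was 1.27 with an adjusted p of 0.0642.

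Dhcr7 had the smallest adjusted p of all members. It was lower in DKO than in OT-II cells of RIPmOVA hosts, with a log2 change of -0.54 (SE 0.138, adjusted p = 0.0833) and a 95% interval of -0.85 to -0.23. This was short of both limits in the fit to all 9 libraries. The adjusted p of Dhcr7 was 0.0538 with the compared groups only and 0.0596 with the chimera as a replicate block. The sensory receptor genes took 556 and 295 reads per 1000000 in the OT-II and 1053 and 1499 in the DKO libraries of RIPmOVA hosts, and macrophage markers (Adgre1, Csf1r, C1qa, C1qb, Mertk, Cd68 and Lyz2) summed to 26.6 and 14.2 against 6.97 and 8.02 RPKM. Lyz2 made up most of that sum in the OT-II libraries (18.7 and 8.44 RPKM), C1qb was also higher there, whereas Adgre1, Mertk and Csf1r were each higher in both DKO libraries, at 0.356 to 1.20 RPKM. Their part in the values of Insig1 and Dhcr7 was not tested beyond the covariate fit, in which Dhcr7 changed by -0.42 with an adjusted p of 0.586.

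Acaca, again kept by the filter only through the DKO libraries compared here, had a change of 0.84 (SE 0.346, adjusted p = 0.211), Hsd17b7 of 0.81 (SE 0.384, adjusted p = 0.259), Srebf1 of -0.17 (SE 0.105, adjusted p = 0.372) and Fdps of -0.15 (SE 0.110, adjusted p = 0.470). With quantile normalization Acaca was at -0.022. Srebf1, the gene of SREBP1, was 16.2 and 19.6 (OT-II, WT host), 19.9, 19.5 and 20.7 (DKO, WT host), 19.8 and 20.1 (OT-II, RIPmOVA host) and 17.8 and 17.5 (DKO, RIPmOVA host) RPKM, and Fdps, the farnesyl diphosphate synthase, was 10.6 and 11.7 (OT-II, WT host), 11.1, 12.7 and 12.1 (DKO, WT host), 10.3 and 11.6 (OT-II, RIPmOVA host) and 9.97 and 9.75 (DKO, RIPmOVA host) RPKM. For both genes the DKO libraries of RIPmOVA hosts lay below the OT-II ones. Without overlap, 8 members had DKO libraries above OT-II libraries (Acaca, through the filter, and Cyp51, Fads2, Hsd17b7, Insig1, Mvk, Sqle and Stard4; 34.6% of all genes), and 4 had them below (Dhcr7, Ebp, Fdps and Srebf1; 24.4%).

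In WT hosts, where both genotypes met no ovalbumin, 0 of 28 members were called, beside 0.0605% of all genes, 0 passed the adjusted p alone, beside 0.0692%, and 2 had an unadjusted p below 0.05 (Pmvk and Tm7sf2), beside 7.89%. Above 0 were 22 of 28 members, beside 51.3% of all genes, and below 0 were 6, beside 48.7%, with a median of 0.16 against 0.0055. All 6 mevalonate enzymes were above 0, with a median of 0.30. With the sensory receptor reads as a covariate, 22 of 28 were above 0 and the median was 0.16. Leaving out any 1 library gave medians of 0.028 to 0.34. Without the 2 WT-host libraries with most sensory receptor reads, 8 of 27 tested members were above 0 and the median was -0.091. That pair was chosen after seeing the data. Its OT-II library held the lowest value of 13 members and its DKO library the highest of 17. Leaving out both was thus bound to lower the genotype difference of such members.

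The highest values in this comparison were those of Fasn, Sqle and Tm7sf2. Fasn changed by 0.82 (SE 0.410, adjusted p = 0.682). Without OT-II replicate 2 of WT hosts it was 1.66 with an adjusted p of 0.0285 and was called, and without replicate 1 it was -0.017. Sqle, the squalene epoxidase, was 1.71 and 4.20 (OT-II, WT host), 3.36, 6.36 and 3.96 (DKO, WT host), 1.72 and 3.00 (OT-II, RIPmOVA host) and 3.28 and 4.94 (DKO, RIPmOVA host) RPKM and changed by 0.61 (SE 0.365, adjusted p = 0.746), and without the 2 libraries with most sensory receptor reads it was at -0.18. Tm7sf2, a C14-sterol reductase, was 1.87 and 2.91 (OT-II, WT host), 3.40, 3.69 and 3.42 (DKO, WT host), 2.57 and 2.50 (OT-II, RIPmOVA host) and 2.29 and 3.30 (DKO, RIPmOVA host) RPKM, with a change of 0.49 (SE 0.192, adjusted p = 0.565). Pmvk, the phosphomevalonate kinase, was 2.82 and 3.64 (OT-II, WT host), 4.36, 4.32 and 4.67 (DKO, WT host), 3.68 and 4.05 (OT-II, RIPmOVA host) and 3.13 and 4.04 (DKO, RIPmOVA host) RPKM, with a change of 0.42 (SE 0.147, adjusted p = 0.505). The 3 DKO libraries were above both OT-II libraries for Mvk, Pmvk and Tm7sf2 (3 members, 10.5% of all genes), and for 0 members were they all below (10.3%). Lowest were Fads2 at -0.20 (SE 0.463, adjusted p = 0.954), Nsdhl, a decarboxylating sterol dehydrogenase, at -0.14 (SE 0.131, adjusted p = 0.847) and Scd2 at -0.10 (SE 0.109, adjusted p = 0.893).

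The difference between genotypes in the host effect was tested as an interaction, the host effect in DKO cells minus that in OT-II cells. Of 28 members 0 were called, beside 0.0173% of all genes for both call rules, and 4 had an unadjusted p below 0.05 (Dhcr7, Insig1, Pmvk and Srebf1), beside 9.32%. Above 0 were 12 members, beside 54.7% of all genes, and below 0 were 16, beside 45.3%. The 12 include Acaca, kept by the filter only through the DKO libraries of RIPmOVA hosts. Insig1 was highest at 1.15 (SE 0.473, adjusted p = 0.521), followed by Fads2 at 0.92 (SE 0.686, adjusted p = 0.643) and Hsd17b7 at 0.74 (SE 0.519, adjusted p = 0.621). Lowest were Fasn at -0.76 (SE 0.609, adjusted p = 0.666), Dhcr7 at -0.66 (SE 0.187, adjusted p = 0.455) and Pmvk at -0.52 (SE 0.218, adjusted p = 0.521). The intervals were wide here, and 17 of 28 lay inside 1 unit of the log2(RPKM + 0.5) scale in either direction. The comparisons share libraries, so their values for one gene are not independent of each other.

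Most members differed in the same direction between replicates 1 and 2 of a group. In OT-II cells of WT hosts, 23 of 28 members were higher in replicate 2 than in replicate 1, beside 44.3% of all genes, with a median difference of 0.30 log2 units. In DKO cells of WT hosts, 25 of 28 were higher in replicate 2 than in replicate 1, beside 54.3%, with a median difference of 0.34. The shift was smaller in RIPmOVA hosts, with 19 (OT-II, beside 46.9%) and 20 (DKO, beside 56.4%) of 28 higher in replicate 2 and medians of 0.12 and 0.13. DKO replicate 3 of WT hosts was above replicate 1 for 21 of 28 members (50.56% of all genes) and above replicate 2 for 6 (48.65%). Of the 17 sterol enzymes, 15 (OT-II) and 15 (DKO) were higher in replicate 2 than in replicate 1 in WT hosts, and 13 (OT-II) and 13 (DKO) in RIPmOVA hosts. Of the 7 tested fatty acid members, 4 (OT-II) and 7 (DKO) were higher in replicate 2 in WT hosts, and 2 (OT-II) and 4 (DKO) in RIPmOVA hosts. DKO replicate 2 of WT hosts held the highest value of 17 members, 12 of them among the 17 sterol enzymes (10.2% of all genes were highest there), and OT-II replicate 1 of WT hosts held the lowest value of 13 members (17.6% of all genes). Both libraries were among those with many sensory receptor reads, although the members stood at opposite ends in them, and OT-II replicate 1 had the lowest depth of all libraries.

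Hmgcs1, the HMG-CoA synthase at the head of the route, showed this pattern at 7.68 and 12.5 (OT-II, WT host), 10.2, 15.2 and 11.2 (DKO, WT host), 9.15 and 11.7 (OT-II, RIPmOVA host) and 10.8 and 12.7 (DKO, RIPmOVA host) RPKM. Cyp51, the lanosterol demethylase, was 6.28 and 11.8 (OT-II, WT host), 9.57, 15.8 and 11.9 (DKO, WT host), 5.53 and 9.01 (OT-II, RIPmOVA host) and 9.19 and 11.8 (DKO, RIPmOVA host) RPKM, and Srebf2 was 13.5 and 21.6 (OT-II, WT host), 20.0, 27.4 and 20.1 (DKO, WT host), 16.8 and 17.5 (OT-II, RIPmOVA host) and 17.1 and 21.4 (DKO, RIPmOVA host) RPKM. Idi1, the isopentenyl diphosphate isomerase, was 2.35 and 3.98 (OT-II, WT host), 3.05, 5.40 and 4.23 (DKO, WT host), 2.93 and 3.50 (OT-II, RIPmOVA host) and 3.13 and 4.08 (DKO, RIPmOVA host) RPKM. DKO replicate 2 of WT hosts was the highest of the 9 libraries for all 4 genes, and OT-II replicate 1 of WT hosts was the lowest for Hmgcs1, Srebf2 and Idi1. Taking each member relative to its own mean, the library medians ran from -0.24 in OT-II replicate 1 to 0.33 in DKO replicate 2, both of WT hosts, with a pooled SD within groups of 0.17.

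**Figure D4:**
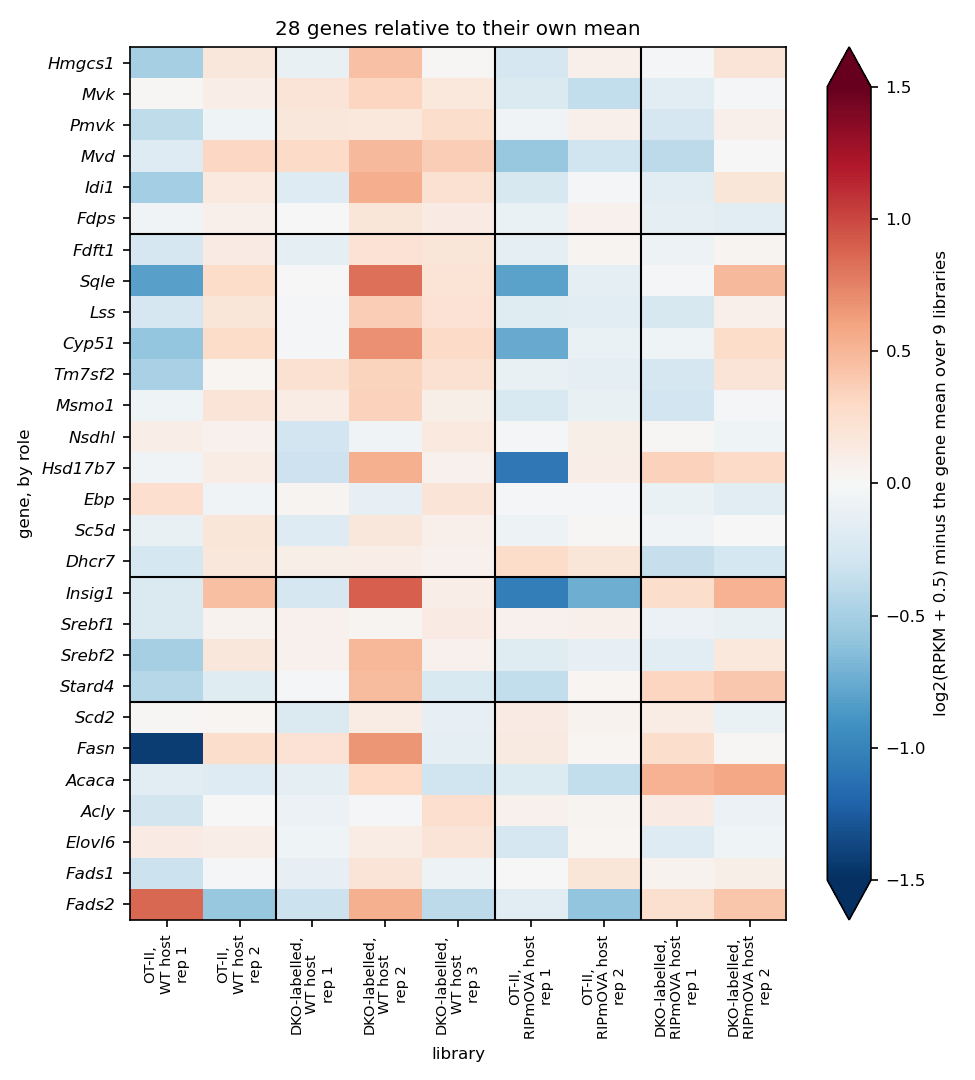
Log2(RPKM + 0.5) of 28 members minus the mean of the gene over the 9 libraries, by role (rows) and library (columns). Column OT-II replicate 1 of WT hosts holds the lowest value of 13 members and column DKO replicate 2 of WT hosts the highest value of 17.

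The genes most like Hmgcs1 over the 9 libraries, by Pearson correlation of log2(RPKM + 0.5), were Man2a1 (0.962), Pik3c2b (0.960), Utp25 (0.954), Ift172 (0.948) and Idi1 (0.947). Of 11568 genes ranked, Sqle stood at 13, Srebf2 at 21, Cyp51 at 37 and Fdft1, the squalene synthase, at 58, whereas Ebp, a sterol isomerase, had a correlation of -0.70 and stood at rank 11166. These correlations describe 9 libraries that share depth and background differences, and no test was made.

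In the order OT-II and DKO of WT hosts, then OT-II and DKO of RIPmOVA hosts, mean RPKM with SD (n = 2, 3, 2 and 2) of the members not yet described was 51.3 ± 7.33, 58.4 ± 7.42, 58.2 ± 0.675 and 56.9 ± 5.96 for Acly and 96.1 ± 1.05, 90.2 ± 11.0, 101 ± 3.34 and 94.9 ± 9.79 for Scd2. Sc5d, the lathosterol desaturase, averaged 13.3 ± 1.95, 13.2 ± 1.74, 12.7 ± 0.614 and 12.7 ± 0.343, Ebp 17.2 ± 2.70, 16.4 ± 1.82, 15.7 ± 0.0707 and 14.5 ± 0.356, and Nsdhl 7.35 ± 0.102, 6.65 ± 1.06, 7.08 ± 0.430 and 6.81 ± 0.300. Fdft1 averaged 4.84 ± 0.987, 5.43 ± 0.749, 4.88 ± 0.499 and 4.99 ± 0.325, Lss, the lanosterol synthase, 1.36 ± 0.393, 1.66 ± 0.285, 1.18 ± 0.0149 and 1.30 ± 0.277, and Elovl6, the elongase of palmitate, 1.54 ± 0.0212, 1.50 ± 0.182, 1.25 ± 0.245 and 1.23 ± 0.111. Scd1, untested, averaged 0.215 ± 0.0127, 0.270 ± 0.0343, 0.520 ± 0.203 and 0.404 ± 0.0233 on 19 to 88 reads. For each of these genes other than Scd1, the 95% interval of every pairwise comparison lay inside 1 unit of the log2(RPKM + 0.5) scale. For low genes such as Lss and Elovl6 this does not exclude a larger change in RPKM.

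Exons of 10 members overlap annotated exons of other genes, and strand use in counting was not stated, so their reads cannot be fully separated. The longest overlaps were those of Fdps with Gm43738 (1124 bases, same strand), Fdft1 with Ctsb (774 bases, opposite strands), Hmgcs1 with Gm48342 (557 bases, opposite strands) and Tm7sf2 with Vps51 (532 bases, same strand).

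Genes around the pathway were read from 5 lists with 133 genes that were not members, of which 104 were tested. In OT-II cells, 0 were called higher and 1 lower in RIPmOVA hosts, beside 122 and 20 of all 11569 genes (median log2 change -0.032). That gene was Acss2, which makes cytosolic acetyl-CoA from acetate, at 16.6 and 9.44 (OT-II, WT host), 11.1, 10.3 and 11.7 (DKO, WT host), 4.92 and 4.33 (OT-II, RIPmOVA host) and 7.21 and 8.85 (DKO, RIPmOVA host) RPKM. It fell by 1.35 on the log2 scale (SE 0.223, adjusted p = 0.0209), and OT-II libraries of RIPmOVA hosts were the lowest of all. Without OT-II replicate 1 of WT hosts the fall was 0.96 and it was no longer called, and without either OT-II library of RIPmOVA hosts the adjusted p was 0.129 or 0.133. It was not called either with the compared groups only (adjusted p = 0.186), no filter (0.139), no intensity trend (0.0559) or the sensory receptor covariate (0.0616), or without the 2 WT-host libraries with most sensory receptor reads (0.0707). Tmem97, a sterol-responsive membrane protein, was 7.50 and 6.37 (OT-II, WT host), 7.67, 8.65 and 8.04 (DKO, WT host), 4.63 and 3.48 (OT-II, RIPmOVA host) and 7.14 and 7.08 (DKO, RIPmOVA host) RPKM. It passed the adjusted p but not the fold limit, at -0.71 (SE 0.145, adjusted p = 0.0447) between hosts in OT-II cells and 0.75 (SE 0.145, adjusted p = 0.0353) between genotypes in RIPmOVA hosts. Tmem97 was not followed through the alternatives.

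In DKO cells 4 of the 104 listed genes were called higher in RIPmOVA hosts and 0 lower, beside 176 and 18 of all genes (median -0.034). Decr1, a reductase of unsaturated fatty acid oxidation, was 1.69 and 2.05 (OT-II, WT host), 2.15, 1.25 and 1.54 (DKO, WT host), 2.63 and 2.47 (OT-II, RIPmOVA host) and 7.20 and 5.17 (DKO, RIPmOVA host) RPKM and rose by 1.64 (SE 0.209, adjusted p = 0.00398). Gramd1b, which moves sterol from the plasma membrane to the endoplasmic reticulum, was 1.90 and 1.60 (OT-II, WT host), 1.83, 1.83 and 1.84 (DKO, WT host), 2.73 and 2.62 (OT-II, RIPmOVA host) and 5.01 and 3.79 (DKO, RIPmOVA host) RPKM and rose by 1.06 (SE 0.156, adjusted p = 0.00805). For both, the DKO libraries of RIPmOVA hosts were the highest of all. Sult2b1, a sterol sulfotransferase, rose by 1.56 (SE 0.319, adjusted p = 0.0330) and Mid1ip1, a partner of acetyl-CoA carboxylase, by 1.40 (SE 0.312, adjusted p = 0.0455), from values of at most 0.88 and 0.39 RPKM in DKO cells of WT hosts. Without DKO replicate 1 of RIPmOVA hosts Gramd1b was at 0.88 with an adjusted p of 0.0968. It also lost its call with quantile normalization (0.98), a pseudocount of 1 (0.92) and rescaling over all genes of the table (0.90), by size, and with the sensory receptor covariate, by an adjusted p of 0.0687. Sult2b1 and Mid1ip1 each lost the call without DKO replicate 1 (adjusted p = 0.119 and 0.144) or 3 (0.121 and 0.122) of WT hosts, Mid1ip1 also without replicate 2 (0.0568). These 2 genes passed the filter only through the DKO libraries of RIPmOVA hosts, and not without either one, so their rise is given as a description. Quantile normalization, no filter on low values, the compared groups only and the sensory receptor covariate also ended the calls of Sult2b1 and Mid1ip1, and a pseudocount of 0.1 and rescaling over all genes that of Mid1ip1. The host change of Decr1 in DKO cells was called in every alternative run. Slc25a1, the mitochondrial citrate carrier, at 0.53 (SE 0.108, adjusted p = 0.0320), Acaa2, a mitochondrial thiolase, at -0.84 (SE 0.102, adjusted p = 0.00307), and Acss1, the mitochondrial acetyl-CoA synthetase, at -0.57 (SE 0.125, adjusted p = 0.0432), passed the adjusted p only. Slc25a1, Acaa2 and Acss1 were not followed through the alternatives.

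Between genotypes in RIPmOVA hosts, 1 listed gene was called higher and 2 lower in DKO cells, beside 59 and 65 of all genes (median 0.035), of which 1 is described here. Decr1 rose by 1.12 (SE 0.230, adjusted p = 0.0433), and its adjusted p ran from 0.0829 to 0.217 without any 1 of the 4 libraries compared. Gpr183, a receptor for oxysterols, was 35.3 and 50.9 (OT-II, WT host), 29.3, 43.2 and 39.2 (DKO, WT host), 59.8 and 59.9 (OT-II, RIPmOVA host) and 31.2 and 28 (DKO, RIPmOVA host) RPKM, and both OT-II libraries of RIPmOVA hosts were above all others. It fell by 1.01 on the log2 scale (SE 0.200, adjusted p = 0.0389), with an adjusted p of 0.0936 to 0.184 without any 1 library. Neither gene was called without the filter, without the intensity trend, with quantile normalization or with the sensory receptor covariate. Decr1 was also not called with a pseudocount of 0.1, a filter at 5 RPKM, either median-of-ratios rescaling or a crossed block in WT hosts, and Gpr183 with a pseudocount of 1 (-0.99). In WT hosts and in the interaction 0 listed genes were called, beside 7 and 2 of all genes (medians -0.00034 and 0.056).

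**Figure D5:**
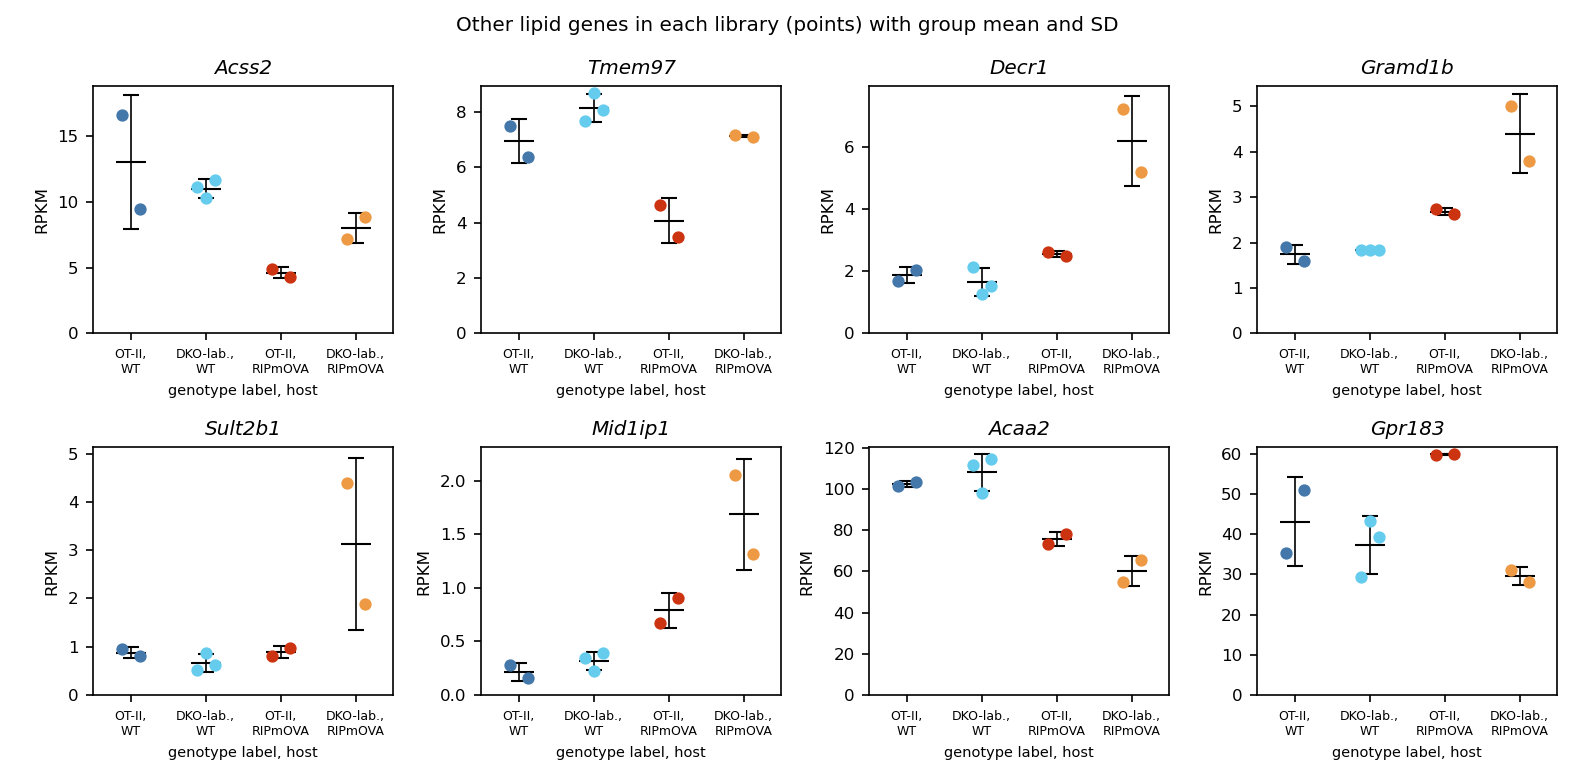
RPKM of 8 genes of the surrounding lists in each library (points) with the group mean and SD (bars), by genotype label and host. Acss2 and Tmem97 are lowest in the OT-II libraries of RIPmOVA hosts, and Decr1, Gramd1b, Sult2b1 and Mid1ip1 are highest in the DKO libraries of RIPmOVA hosts.

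By list, the 18 other sterol and isoprenoid genes held 0 called genes in every comparison, with medians of -0.037 (host, OT-II), -0.036 (host, DKO), 0.030 (genotype, RIPmOVA hosts), -0.0052 (genotype, WT hosts) and 0.051 (interaction). The list of SREBP processing and sterol sensing held 13 tested genes and 0 called. Called genes came from the lists of sterol uptake, export and storage (22 tested), of other fatty acid synthesis genes (30 tested) and of fatty acid oxidation (21 tested). Among 12 tested genes of activation and growth, read beside the members, the calls were Nr4a1 and Nr4a3 in both host comparisons and Nr4a3 between genotypes in RIPmOVA hosts, all higher. Nr4a3 was 0.181 to 0.665 RPKM in WT hosts, so it passed the filter only through RIPmOVA-host libraries, and its calls are given as a description. In RIPmOVA hosts it was 5.66 and 3.72 (OT-II) and 16.5 and 14.1 (DKO) RPKM. Summed exon reads do not check the deletion of this gene either.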

How the data were processed

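RNA was sequenced from 9 libraries of sorted OT-II thymocytes in 4 groups of genotype label and host. According to the methods, cDNA was made with SMART-seq v4 and libraries made with Nextera XT were read from both ends. STAR alignment by the authors used mm10 and GENCODE vM17, and duplicates were then removed and exon reads counted per Entrez gene. The deposited values are RPKM, computed by the authors and rounded to 3 decimals, and the deposited table also holds the exon length of each gene. Strand use and the versions of STAR and Picard were not given in the sources used here, so overlapping and near-identical genes are uncertain.

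RPKM multiplied by length gave whole reads for 100% of the low values checked (tolerance 0.1 read), and depths of 15520000 to 25050000 reads. A floor of 3 reads equals 0.120 to 0.193 RPKM at a length of 1 kb and covers counting error only, since no molecular identifiers were used.

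Genes at 1 RPKM or more in at least 2 libraries were kept (11569). A group-means model on log2(RPKM + 0.5) was fitted to all 9 libraries with limma 3.58.1 in R 4.3.3 (eBayes with trend), and two-sided p values were adjusted by Benjamini-Hochberg over all kept genes. Fold changes on this scale understate those of low genes. Calls needed an adjusted p of 0.05 or less and an absolute log2 change of 1 or more. The fit was tested on 5 simulated data sets for the host comparison in OT-II cells. Each changed 200 of 11569 genes, with noise drawn independently for each gene and library. Shifts shared by many genes of a library, as seen among the members, were not simulated, so the shares below need not hold for the members. Of added changes of 1 log2 unit, 30.8% were called and 58.4% passed the adjusted p alone. Of changes of 1.5 and 2 log2 units, 80% and 85.6% were called, and 2.42% of all calls were false in these data without shared shifts. Many true changes near 1 log2 unit would thus be missed. Exact permutation of 2 against 2 libraries cannot give a two-sided p below 0.333 and was not used. Python 3.11.15 with pandas 2.3.3 and matplotlib 3.10.9 was used for tables and plots.

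The members, lists and tests were chosen with earlier results of these data known. Named genes were all members by level, in each comparison the 3 members with the highest and 3 with the lowest log2 change, and listed genes that were called. Pmvk, Mvk and the genes given beside these were named after their values were seen, and 1 called gene of the lists is not reported here. Promoter windows are those of RefSeq (GRCm38.p6), and exon overlaps come from the GENCODE annotation of GRCm38.

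The labels place same-numbered OT-II and DKO libraries of a host type in 1 chimera. Their deviations from the group means correlated at 0.0059, -0.24 and -0.079 (WT hosts 1 and 2, RIPmOVA hosts), and the block was fitted as a random effect with a consensus correlation of 0.10.

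The alternatives were other pseudocounts, filters and scalings, the compared groups only, no trend, a sensory receptor covariate, voom on the recovered reads, a replicate block, a call on adjusted p alone and leaving out each library. Rescaling over all genes of the table, crossed blocks and leaving out the 2 WT-host libraries with most sensory receptor reads were chosen after seeing the data.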

Additional observations from a re-analysis of the deposited data

How the results depend on the processing

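Members called stayed at 0 in most alternatives. The count was 1 in OT-II cells between hosts and 1 between genotypes in WT hosts without OT-II replicate 2 of WT hosts (Fasn in both), and 1 between genotypes in RIPmOVA hosts with the compared groups only and 1 without the 2 WT-host libraries with most sensory receptor reads (Insig1 in both). Leaving out 1 library gave 0 to 1 called members in OT-II cells between hosts and between genotypes in WT hosts, and 0 in the other 3 comparisons. The median log2 change of members then ran from -0.17 to 0.12 (host, OT-II), -0.20 to -0.037 (host, DKO), -0.011 to 0.14 (genotype, RIPmOVA hosts), 0.028 to 0.34 (genotype, WT hosts) and -0.32 to 0.077 (interaction). Rescaling over all genes of the table moved that median to -0.13 (genotype, RIPmOVA hosts) and -0.30 (interaction), with the median of all genes at -0.17 and -0.19. Without the 2 WT-host libraries with most sensory receptor reads it was -0.091 (genotype, WT hosts) and 0.13 (interaction), where Fasn was at -0.18 (host, OT-II), -0.23 (genotype, WT hosts) and 0.28 (interaction) and Sqle at -0.18 (genotype, WT hosts). With the sensory receptor covariate Fads2 was at 0.0072 (host, OT-II), -0.41 (host, DKO) and -0.42 (interaction). With quantile normalization Fads2 was at -0.28 and Acaca at -0.038 (host, DKO), and Acaca at -0.022 (genotype, RIPmOVA hosts). Leaving out 1 library gave Fads2 -1.24 to 0.19 (host, OT-II) and -0.92 to 0.51 (genotype, WT hosts), Hsd17b7 -1.10 to 0.068 (host, OT-II), and Fasn -0.18 to 1.50 (host, OT-II), -0.017 to 1.66 (genotype, WT hosts) and -1.60 to 0.076 (interaction). The causes were not tested. With the chimera as a replicate block 0 members were called in each of the 5 comparisons, and the block changed no call of a listed gene. Crossed pairings also gave 0 called members. Over all genes, 142, 194, 124, 7 and 2 were called (host in OT-II, host in DKO, genotype in RIPmOVA hosts, genotype in WT hosts, interaction), and voom on the recovered reads called 123, 238, 143, 6 and 0. Counts over 1.5 times away were 31 (host, OT-II), 220 (genotype, RIPmOVA hosts) and 2 (genotype, WT hosts) with the compared groups only, and without the filter 55 (host, OT-II), 117 (host, DKO), 4 (genotype, WT hosts) and 8 (interaction). The covariate gave 90 (host, DKO), 20 (genotype, RIPmOVA hosts) and 0 (interaction), quantile normalization 201 (genotype, RIPmOVA hosts), rescaling over all genes 214, 18 and 7 (both genotype comparisons and interaction), a filter at 5 RPKM 81 and 0 (genotype, RIPmOVA hosts, and interaction) and a pseudocount of 0.1 0 (interaction). Without the 2 libraries with most sensory receptor reads the counts were 57, 553, 555, 4 and 0, and without 1 library 53 to 296, 102 to 258, 22 to 96, 5 to 102 and 0 to 165. Where 1 library is left in a group, it is assumed to vary like the others. Fads2 rested on the fewest reads of the tested members, 26 to 94 per library, and its values carry the largest counting error.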
